A study of Mus musculus with 3 samples.

Results

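A set of 10 genes that mark haematopoietic stem and progenitor cells (HSPCs) was followed in the bone marrow (BM) transcriptome of mice given leukocyte cell-derived chemotaxin 2 (LECT2). They are the receptor tyrosine kinases Kit and Flt3, the surface proteins Cd34, Ly6a, Slamf1 and Cd48, and the transcription factors Meis1, Hlf, Hoxa9 and Mecom. They were taken by symbol from the 17250 gene names that the authors' tables list, as known HSPC genes, with earlier results of these data known. By the labels, each of the 3 libraries was made from BM cells flushed from the bones of C57BL/6 mice aged 6 to 8 weeks. Elsewhere the study calls the sequenced cells BM mononuclear cells, a fraction from which most neutrophils are usually removed, and which of these was used is not settled here. Mice of the 3-day and 5-day libraries received recombinant LECT2 subcutaneously every day at 300 μg per kg of body weight. For the 0-day library the labels name no injection and no vehicle. The number of mice behind a library is not given in the sources used here, and with 1 library per time point no difference below has a replicate check or a p-value.

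HSPCs are rare cells of the BM that renew themselves and give rise to all blood lineages. In the mouse they are sorted as cells that lack lineage markers and carry Sca-1, the product of Ly6a, and c-Kit (LSK cells). Within LSK cells, CD34 and Flt3 are absent from long-term HSCs and appear as cells become multipotent and lymphoid-primed progenitors, and the SLAM proteins CD150 (Slamf1) and CD48 serve the same purpose, with CD150 on HSCs and CD48 on the progenitors that follow. The question these libraries address is how the RNA of BM cells changed over LECT2 treatment. None of the 10 genes belongs to HSPCs alone, since mast cells also carry c-Kit, endothelial cells CD34, dendritic cells Flt3 and most leukocytes CD48.

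Depth differed little between libraries, with 15523952, 15146983 and 15514673 gene reads at 0, 3 and 5 days. Levels are given as RPKM, a gene's reads divided by transcript length and by library total. Ratios are log2 ratios of RPKM + 0.1, and the added 0.1 shrinks the ratio of low genes. Intervals are exact 95% intervals of the reads and hold counting error alone, not the spread between mice or libraries. Reads copied by PCR and lacking molecular identifiers are not independent molecules, so the intervals can be too narrow even for that error. Genes averaging at least 1 RPKM had a median log2 ratio of 0.10 at 3 against 0 days and 0.31 at 5 against 0 days, and edgeR's TMM scaling (trimmed mean of M values, which sets the bulk of genes level) brought it to 0.02 and 0.01. The 10 genes are therefore also given under TMM where this matters. Late neutrophil markers, the most abundant of the marker lists, summed to 149807, 115886 and 41359 RPKM at 0, 3 and 5 days, and 10 of 10 were at least 2-fold lower at 5 against 0 days, as were 5.91% of all genes. S100a8 and S100a9, a pair of calcium-binding proteins of neutrophil granules and cytosol, stood at 28717, 23982 and 7789 RPKM and at 61729, 44195 and 14032 RPKM. Among granule proteins, Ngp stood at 21998, 21281 and 10391 RPKM and Camp at 14235, 7762 and 3609 RPKM. The log2 ratios at 5 against 0 days were lowest for Retnlg (−3.96) and Mmp8 (−2.53).

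Cd34 and Flt3 were lowest at 3 days, at 60.7% and 63.3% of their 0-day RPKM, and had 90.98% and 93.65% of it at 5 days, with log2 ratios of −0.14 and −0.09 that were −0.44 and −0.40 under TMM scaling. Kit and Cd48 were highest at 5 days, with 1.95-fold and 1.49-fold the 0-day value of RPKM + 0.1. Their log2 ratios of 0.96 and 0.57 were 0.66 and 0.26 under TMM scaling, and 0.28 and 0.72 with a trend on gene length removed. Meis1 had its lowest level at 3 days, as did Hoxa9 within wide counting error, and Hlf was highest at 5 days on the RPKM scale. The ratio of Kit to Cd34 within a library went from 0.340 to 0.684 and 0.733 over the 3 time points. Of the 8 genes with at least 1 RPKM, 0 reached a 2-fold difference between any pair of libraries, which says little of so few genes, since between 1.95% and 15.5% of all genes were higher and between 2.41% and 5.91% lower by that much. Because unsorted BM cells were sequenced, fewer cells of a type and less RNA per cell cannot be told apart.

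Kit, Flt3 and Cd34 carry the main contrast, and their start regions are shown for orientation. The 250 bases before each annotated start were read from RefSeq for GRCm38.p6, and capitals mark the letters GAGGAA, a core recognised by ETS factors. Kit is read from chr5:75574737-75574986 on the plus strand, Flt3 from chr5:147400490-147400739 on the minus strand and Cd34 from chr1:194938571-194938820 on the plus strand.
Kit: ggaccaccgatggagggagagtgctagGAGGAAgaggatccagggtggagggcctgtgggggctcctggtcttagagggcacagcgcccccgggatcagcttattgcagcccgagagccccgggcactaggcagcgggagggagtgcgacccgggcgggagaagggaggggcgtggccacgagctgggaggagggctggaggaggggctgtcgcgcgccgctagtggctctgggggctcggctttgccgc
Flt3: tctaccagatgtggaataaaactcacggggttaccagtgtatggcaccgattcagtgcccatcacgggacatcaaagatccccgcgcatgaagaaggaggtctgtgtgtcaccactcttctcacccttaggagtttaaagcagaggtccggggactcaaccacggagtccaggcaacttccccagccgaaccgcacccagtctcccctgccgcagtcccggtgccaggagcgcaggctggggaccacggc
Cd34: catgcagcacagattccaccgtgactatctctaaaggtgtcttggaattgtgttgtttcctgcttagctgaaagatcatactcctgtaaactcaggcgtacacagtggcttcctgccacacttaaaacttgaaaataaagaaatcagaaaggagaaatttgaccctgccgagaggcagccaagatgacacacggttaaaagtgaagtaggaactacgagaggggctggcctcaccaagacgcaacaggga
On either strand, GAGGAA had 1 match in the Kit window, 223 bases before the RefSeq start, and in 23.3% of all 32851 promoters of the same length. The Hoxa9 window held 3 matches, and the windows of the other 7 genes with an entry held none. Other letters were searched in the same way. AGATAA, known from erythroid regulators, is present in 9.99% of all promoters, the E-box letters CAGCTG in 13.0% and the Hox and Meis letters TGATTNAT in 2.82%. The 3 windows printed here held none of these. The GC content was 70.8% for Kit, 59.2% for Flt3 and 46.4% for Cd34, against a median of 52.4% over all promoters. A match of letters is a description and not a binding site. Except for Flt3, the RefSeq starts that set these windows differ from the GENCODE starts used for the gene positions below. Of the 9 windows, 6 reach into the gene as GENCODE places it, by 71 bases for Kit and 2 for Cd34, and with all 250 bases for Hoxa9 and Mecom. The Flt3 window reaches in by 0 bases.

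Kit is the receptor of stem cell factor, which keeps HSCs and early progenitors alive. It lies on the plus strand of chromosome 5, from 75574916 to 75656722 (GENCODE M21, GRCm38), and its counted transcript has 5205 bases. Kit had 662, 789 and 1299 reads in the 0-, 3- and 5-day libraries, or 8.19, 10.01 and 16.1 RPKM. It was thus lowest before treatment and highest at 5 days, and the 3 intervals of these levels, 7.58 to 8.84, 9.32 to 10.7 and 15.2 to 17.0 RPKM, do not overlap. On the log2 scale the ratio of Kit was 0.29 at 3 against 0 days (interval 0.14 to 0.44) and 0.96 at 5 against 0 days (0.84 to 1.11). Most of the difference lay between the treated libraries, with a log2 ratio of 0.68 at 5 against 3 days (0.56 to 0.81). TMM scaling put the log2 ratios of Kit with 0 days at 0.20 and 0.66. Long genes read higher in the treated libraries, and with this length trend removed, Kit stood at −0.12 at 3 days and 0.28 at 5 days, so that its sign at 3 days depends on that step.

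Flt3 is the receptor of Flt3 ligand and marks multipotent and lymphoid-primed progenitors. Its gene is on the minus strand of the same chromosome, from 147330741 to 147400489. Flt3 had 827, 511 and 774 reads in the same order of time, or 14.5, 9.21 and 13.6 RPKM. The 3-day library stood below both others, whose intervals overlap. The log2 ratio of Flt3 was −0.65 at 3 against 0 days (−0.82 to −0.50), −0.09 at 5 against 0 days (−0.24 to 0.05) and 0.56 at 5 against 3 days (0.40 to 0.73). Under TMM scaling the 5-day log2 ratio was −0.40, so the return to the 0-day level holds on the RPKM scale and not relative to the bulk of genes.

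Cd34 encodes a sialomucin that is absent from long-term HSCs of the adult mouse and present on the progenitors below them. It lies on the plus strand of chromosome 1, from 194938819 to 194961279. Cd34 had 981, 581 and 892 reads, or 24.1, 14.6 and 21.9 RPKM. Its course was that of Flt3, with the lowest level at 3 days. The log2 ratio of Cd34 was −0.72 at 3 against 0 days (−0.87 to −0.57), −0.14 at 5 against 0 days (−0.27 to −0.00405) and 0.58 at 5 against 3 days (0.43 to 0.74). The 5-day value was −0.44 under TMM scaling and −0.49 with the length trend removed.

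**Figure D1:**
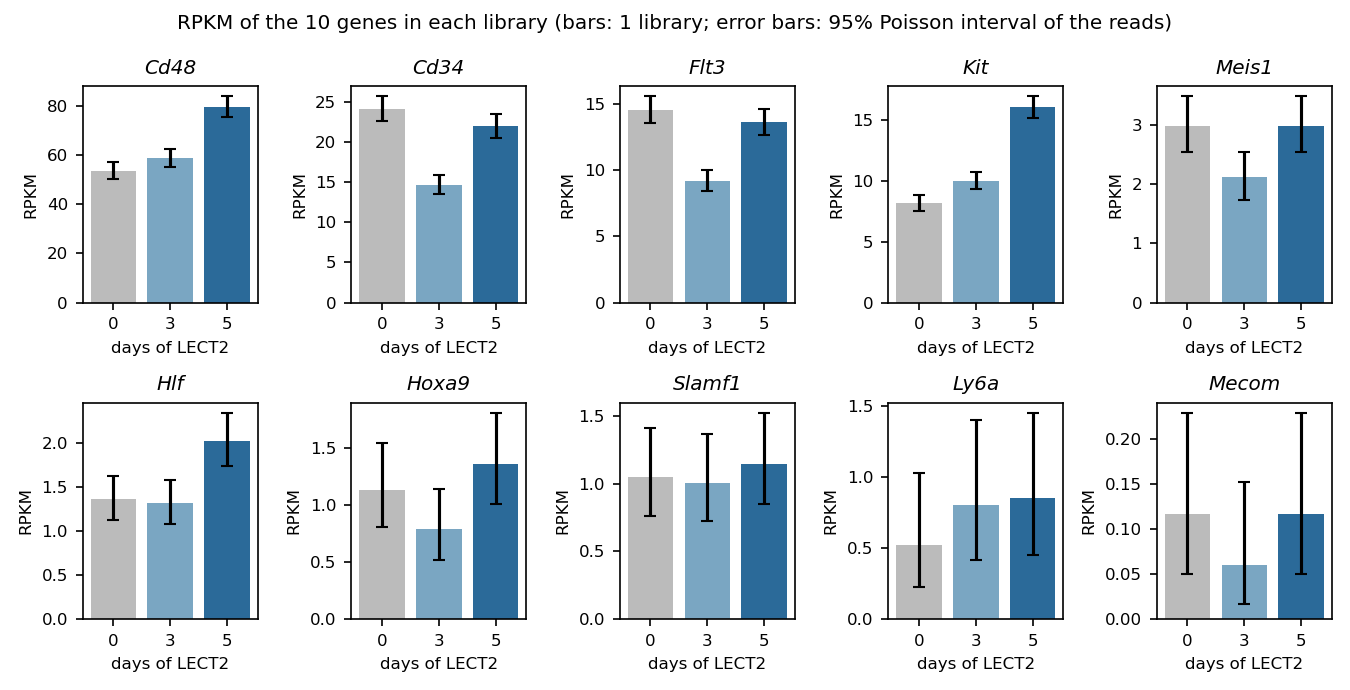
RPKM of each of the 10 genes at 0, 3 and 5 days of LECT2, 1 library per bar, with the exact 95% Poisson interval of the reads as error bar and a separate linear axis from 0 for each gene. Cd34 and Flt3 had their lowest bar at 3 days (14.6 and 9.21 RPKM), whereas Kit and Cd48 had their highest at 5 days (16.1 and 79.6 RPKM).

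A ratio of 2 genes within a library does not depend on how libraries are scaled, so Kit, Cd34 and Flt3 were also compared with each other. The Kit to Cd34 ratio of RPKM was 0.340 (0.307 to 0.375) before treatment, 0.684 (0.614 to 0.762) after 3 days and 0.733 (0.673 to 0.799) after 5 days. It was 2.01-fold higher at 3 than at 0 days (exact 95% interval 1.74 to 2.33) and 2.16-fold higher at 5 days (1.89 to 2.46). Between 3 and 5 days it differed little, with a fold of 1.07 (0.933 to 1.23). The balance of the receptors moved likewise, and the Kit to Flt3 ratio of RPKM went from 0.563 to 1.09 and 1.18, which is 1.93-fold higher at 3 days (1.65 to 2.25) and 2.10-fold higher at 5 days (1.83 to 2.41). By contrast, the Cd34 to Flt3 ratio was 1.66, 1.59 and 1.61, and its fold at 5 against 0 days was 0.972 (0.848 to 1.11). Thus Cd34 and Flt3 kept their proportion within counting error while Kit was higher relative to both in the 2 treated libraries. With the trend on gene length removed, the log2 changes with 0 days were 0.70 and 0.77 for Kit to Cd34 and 0.79 and 0.92 for Kit to Flt3. Both comparisons with 0 days share the 0-day library.

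**Figure D2:**
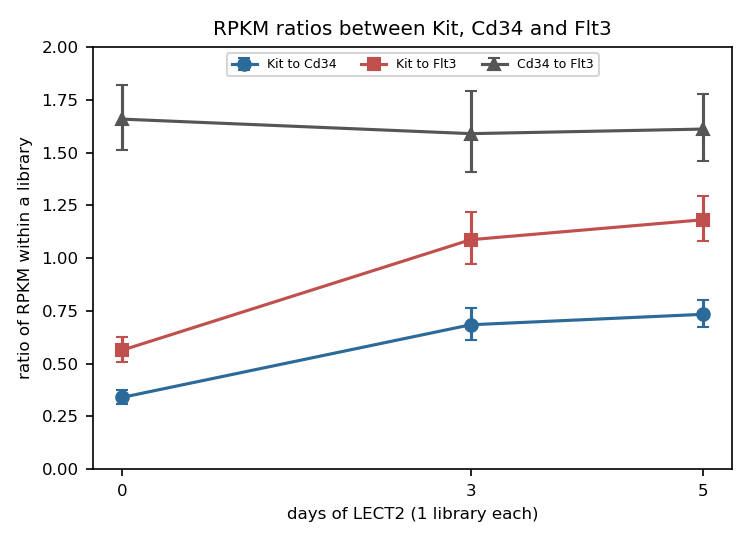
Ratios of RPKM between Kit, Cd34 and Flt3 within each library (vertical axis, no unit) against days of LECT2, with exact 95% counting intervals as error bars. Kit to Cd34 stood at 0.340, 0.684 and 0.733 and Kit to Flt3 at 0.563, 1.09 and 1.18, while Cd34 to Flt3 stayed between 1.59 and 1.66.

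Cd48 is an adhesion protein of the SLAM family that HSCs lack and most other blood cells carry. Its gene lies on the plus strand of chromosome 1 from 171682009 to 171705258. It was the most abundant of the 10 genes per transcript length, with 950, 1018 and 1411 reads, or 53.6, 58.9 and 79.6 RPKM at 0, 3 and 5 days. The 5-day library stood above the other 2, whose intervals overlap. The log2 ratio of Cd48 was 0.13 at 3 against 0 days (0.00623 to 0.264), 0.57 at 5 against 0 days (0.45 to 0.69) and 0.44 at 5 against 3 days (0.32 to 0.55). Its short transcript of 1142 bases puts it at the other end of the length trend from Kit, and without that trend the log2 ratios with 0 days were 0.45 at 3 days and 0.72 at 5 days, whereas under TMM scaling they were 0.05 and 0.26. Relative to Cd48, Cd34 was lower in the treated libraries, with a Cd34 to Cd48 ratio of RPKM of 0.450, 0.249 and 0.275. This ratio was 0.553-fold at 3 against 0 days (0.482 to 0.634) and 0.612-fold at 5 against 0 days (0.541 to 0.693). Kit did not stand higher relative to Cd48 in the same way as it did relative to Cd34 and Flt3. The Kit to Cd48 ratio of RPKM was 0.153, 0.170 and 0.202, with a fold of 1.11 at 3 against 0 days (0.969 to 1.28) and 1.32 at 5 against 0 days (1.16 to 1.4995), and with the length trend removed its log2 changes turned to −0.57 and −0.44.

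Slamf1, the gene of CD150, which HSCs carry, lies 61868 bases from Cd48, on the plus strand of chromosome 1 from 171767127 to 171801184. It had 44, 41 and 48 reads, or 1.05, 1.01 and 1.151 RPKM at 0, 3 and 5 days. All 3 intervals of these levels overlap, and the log2 ratio at 5 against 0 days was 0.12 (−0.49 to 0.75) on the RPKM scale and −0.17 under TMM scaling. At this depth a difference in Slamf1 was not detectable. Of its 8 family members with at least 1 RPKM, Slamf7 had a log2 ratio of 1.16 and Slamf9 of −1.16 at 5 against 0 days, so that 1 was at least 2-fold higher and 1 lower, beside 15.5% and 5.91% of all genes. Under TMM scaling 0 were higher and 2 lower, beside 7.13% and 10.1% of all genes under that scaling, Slamf7 standing at 0.85, Slamf9 at −1.47 and Cd2 at −1.08. Ly9 was at 24.4, 28.4 and 37.3 RPKM, Cd84 at 35.6, 48.6 and 30.0 RPKM, and Cd2 at 68.2, 41.0 and 39.9 RPKM.

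Ly6a, the gene of Sca-1 (chromosome 15, minus strand, 74994877 to 74998031), could not be read from these tables. It is listed in 3 rows that carry RefSeq transcript identifiers, with no row for the gene as a whole, and the row used had 8, 12 and 13 reads, or 0.522, 0.803 and 0.849 RPKM. The other rows had 1, 1 and 1 reads and 4, 2 and 0 reads. With all their rows added, names with several rows had a median of 54 reads over the 3 libraries, against 534 reads for names with 1 row. A low value is thus shared by Ly6a and other names with several rows, and its cause was not tested. The log2 ratio of Ly6a at 5 against 0 days had an interval of −0.68 to 2.18, and no direction is given. Its near relatives in the Ly6 cluster were abundant, with Ly6c2 at 932, 993 and 1138 RPKM, Ly6e at 637, 639 and 886 RPKM and Ly6d, a marker of early B cells, at 412.4, 310.8 and 250.4 RPKM. Among 7 Ly6 family genes with at least 1 RPKM, Ly6c1 (log2 ratio 1.42) and Ly6i (−1.09) passed 2-fold at 5 against 0 days, 1 higher and 1 lower beside 15.5% and 5.91% of all genes. Under TMM scaling 1 was higher and 3 were lower (Ly6i, Ly6f and Ly6d), beside 7.13% and 10.1%, and with the length trend removed 1 was higher and 0 lower, beside 5.05% and 7.61%. These paralogs share sequence, and how the counting divided reads between them is not given in the sources used here.

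Meis1, Hoxa9 and Hlf are transcription factors of HSCs, and Meis1 and Hoxa9 bind DNA together. Meis1, on the minus strand of chromosome 11 from 18879817 to 19018985, had 159, 110 and 159 reads, or 2.98, 2.11 and 2.98 RPKM. The 3-day library was lowest, and the levels at 0 and 5 days were alike on this scale. The log2 ratio of Meis1 was −0.48 at 3 against 0 days (−0.86 to −0.14), 0.00083 at 5 against 0 days (−0.33 to 0.33) and 0.48 at 5 against 3 days (0.14 to 0.86), and under TMM scaling the 5-day value was −0.30. Relative to Cd34, Meis1 stood at a ratio of RPKM of 0.123, 0.144 and 0.136, and the fold of this ratio at 3 against 0 days was 1.17 (0.888 to 1.53).

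Hoxa9, on the minus strand of chromosome 6 from 52223100 to 52231089, had 40, 27 and 48 reads, or 1.13, 0.785 and 1.36 RPKM. Its lowest value was at 3 days too, but the intervals of all 3 levels overlap. The log2 ratio of Hoxa9 was −0.48 at 3 against 0 days (−1.29 to 0.21) and 0.72 at 5 against 3 days (0.09 to 1.53), and at 5 against 0 days it was 0.24 (−0.37 to 0.91) on the RPKM scale and −0.04 under TMM. Among 10 genes of the HoxA cluster and Meis paralogs with a row, Hoxa5 and Hoxa7 alone had a mean of at least 1 RPKM. Hoxa5 went from 67 to 35 and 25 reads (log2 ratio −1.32 at 5 against 0 days) and Hoxa7 from 81 to 54 and 69 reads (−0.22). Meis3 had 18, 7 and 18 reads, and Meis2 3, 0 and 0 reads.

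Hlf, on the minus strand of chromosome 11 from 90336536 to 90390895, had 120, 113 and 178 reads, or 1.36, 1.32 and 2.03 RPKM. Its 5-day level stood above the other 2, and the log2 ratio at 5 against 0 days was 0.54 (0.23 to 0.92) with the deposited RPKM, 0.25 under TMM scaling and −0.18 with the length trend removed, its counted transcript of 5665 bases being the longest of the 10. Mecom, the gene of the HSC factor Evi1 (chromosome 3, minus strand, 29951296 to 30548008), had 8, 4 and 8 reads, or 0.116, 0.0596 and 0.116 RPKM, and its interval at 5 against 0 days reached from −1.61 to 1.61 on the log2 scale. A difference in Mecom was not detectable at this depth.

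Ordered by RPKM, the 10 genes at 0 days ran from Cd48 through Cd34, Flt3, Kit and Meis1, each with an interval clear of the next. Below Meis1 came Hlf, Hoxa9, Slamf1, Ly6a and Mecom, and neighbours in this stretch overlapped. At 3 days Kit (10.01 RPKM) and Flt3 (9.21 RPKM) overlapped, and at 5 days Kit stood above Flt3 with no overlap. Together the 10 genes took 3799, 3206 and 4830 reads at 0, 3 and 5 days. Cd34, Kit, Flt3 and Cd48 made up 90.0%, 90.4% and 90.6% of these reads.

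The 8 genes with at least 1 RPKM were set beside all genes. At 3 against 0 days, 0 of 8 were higher by at least 2-fold and 0 lower, where 4.08% and 2.41% of 11325 genes were. At 5 against 0 days it was again 0 and 0 of 8, where 15.5% and 5.91% of 11497 genes were, and at 5 against 3 days 0 and 0 of 8, where 1.95% and 3.45% of 11375 genes were. With shares this small over all genes, a count of 0 among 8 genes says little about them. By rank among all genes, Cd34 and Flt3 stood at percentiles 6.27 and 7.82 at 3 against 0 days, and Hoxa9 and Kit at percentiles 90.8 and 88.6 at 5 against 3 days. At a 1.5-fold threshold, Flt3 and Cd34 were lower (2 of 8, against 10% of all genes) and 0 of 8 higher (against 16.4%) at 3 against 0 days. At 5 against 0 days Kit was higher (1 of 8, against 34.5%) and 0 of 8 lower (against 12.3%), and at 5 against 3 days Kit and Hoxa9 were higher (2 of 8, against 17.3%) and 0 of 8 lower (against 6.86%). The counting interval lay above 0 for Kit and Cd48 (2 of 8) and below 0 for Flt3, Cd34 and Meis1 (3 of 8) at 3 against 0 days, where it did so for 41.3% and 26.3% of all genes. At 5 against 0 days it lay above 0 for Kit, Cd48 and Hlf (3 of 8, against 55.5%) and below 0 for Cd34 (1 of 8, against 22.3%). At 5 against 3 days it lay above 0 for 7 of 8, all but Slamf1, against 54.7% of all genes, and below 0 for 0 of 8, against 15.3%. All these intervals are on the deposited RPKM scale and were not recomputed under TMM scaling. That scaling put the log2 ratios of Meis1 and Hoxa9 at 5 against 3 days at 0.26 and 0.52. Intervals of counting error alone excluded 0 for a large share of all genes in every comparison.

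The median log2 ratio of the 8 genes was −0.27 at 3 against 0 days, beside 0.10 over all genes, 0.18 at 5 against 0 days, beside 0.31, and 0.57 at 5 against 3 days, beside 0.25. Under TMM scaling the medians were −0.35, −0.10 and 0.35, beside 0.02, 0.01 and 0.02. Under both scalings their median thus lay below that of all genes at 3 against 0 days and above it at 5 against 3 days. This does not hold for each gene, since Kit (0.29, and 0.20 under TMM) and Cd48 (0.13 and 0.05) lay above the median of all genes at 3 against 0 days, and Slamf1 (0.18 and −0.03) lay below it at 5 against 3 days. The comparisons share libraries and are set side by side only.

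**Figure D3:**
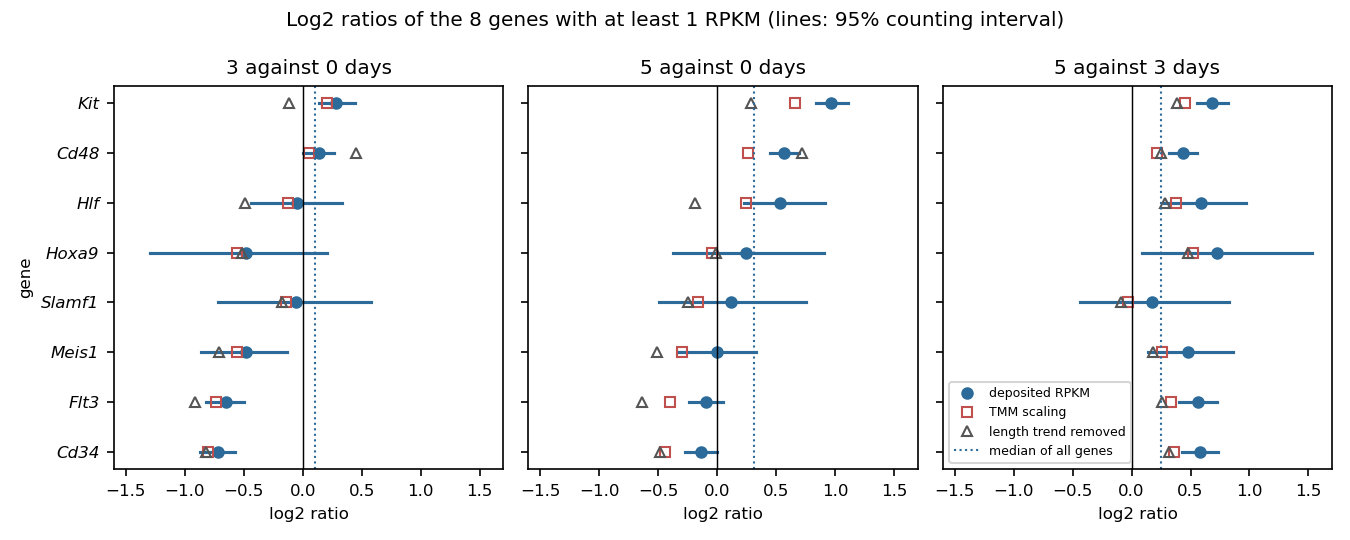
Log2 ratios of the 8 genes with at least 1 RPKM for the 3 comparisons, with the deposited RPKM (filled circles, line: 95% counting interval), TMM scaling (squares) and the length trend removed (triangles). The dotted line is the median of all genes with the deposited RPKM, at 0.10, 0.31 and 0.25, and applies to the circles only. The circles of Cd34 and Flt3 lie left of it at 3 and 5 against 0 days, whereas Kit moves from −0.12 to 0.29 at 3 against 0 days depending on the step.

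Genes with related roles were then read from lists of companions. Of 18 HSPC transcription factors with at least 1 RPKM, 3 were higher by at least 2-fold and 1 lower at 5 against 0 days (15.5% and 5.91% of all genes), and under TMM scaling 0 were higher and 1 lower (7.13% and 10.1% of all genes). The higher ones were Erg (8.00, 14.5 and 17.4 RPKM) and Etv6 (14.96, 22.2 and 31.8 RPKM), both ETS factors that HSCs need, and Kmt2a, a histone methyltransferase listed as Mll1 (6.68, 8.80 and 13.7 RPKM). The lower one was Hoxa5. Myb, which progenitors of most lineages require, was the most abundant of the list, with 89.8, 113.6 and 139.5 RPKM. Lyl1 stood at 60.8, 65.9 and 79.9 RPKM and Fli1 at 51.96, 64.4 and 60.97 RPKM.

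Among HSPC surface proteins, 12 reached 1 RPKM in either library of the 5 against 0 days comparison, of which 3 were higher by at least 2-fold and 1 lower, beside 15.5% and 5.91% of all genes, and under TMM scaling 1 was higher and 2 lower, beside 7.13% and 10.1%. Itga6, an integrin chain, went from 129 to 265 and 495 reads (log2 ratio 1.89). Eng, a co-receptor for TGF-beta also found on endothelium, went from 200 to 251 and 482 reads (1.25), and Cd93 from 2759 to 3905 and 5548 reads (1.01). The tetraspanin Cd9 was the lower one, at 140.7, 129.6 and 54.4 RPKM. Adgrg1, listed as Gpr56, stood at 44.3, 40.6 and 62.5 RPKM. At 3 against 0 days 1 of 13 was at least 2-fold higher and 1 lower, beside 4.08% and 2.41% of all genes. The higher one was Itga6 (log2 ratio 1.04), which under TMM scaling did not pass 2-fold, and the lower one Procr, the protein C receptor of HSCs, with 26, 7 and 13 reads. Of 6 further HSC-enriched genes, 0 passed 2-fold in either direction at 5 against 0 days, beside 15.5% higher and 5.91% lower of all genes, or 1 lower under TMM scaling (Cdkn1c), beside 10.1%, with Txnip at 67.8, 84.4 and 76.1 RPKM, Angpt1 at 5.45, 4.29 and 4.93 RPKM and Mllt3 at 2.67, 2.55 and 2.75 RPKM.

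In the signalling below Kit and Flt3, the genes with the largest ratios were a pair of negative regulators. Cbl, a ubiquitin ligase that marks activated Kit and Flt3 for degradation, went from 202 reads to 1184 and 1892, or 2.56, 15.4 and 24.0 RPKM. Sh2b3 (Lnk), an adaptor that dampens Kit signalling in HSCs, had 398, 1187 and 1579 reads, or 10.3, 31.4 and 40.7 RPKM. On the log2 scale the ratios with 0 days were 2.54 and 3.18 for Cbl and 1.60 and 1.98 for Sh2b3, and at 5 days 2.88 and 1.67 under TMM scaling and 2.51 and 1.66 with the length trend removed. The row of Ptprc, the gene of the pan-leukocyte protein CD45, moved in the same way, with 82, 410 and 557 reads (0.949, 4.86 and 6.45 RPKM). It too was lowest in the 0-day library, which all these ratios share, and the part of that library in the ratios was not tested. Cbl and Sh2b3 were the 2 of 15 genes of this list that passed 2-fold higher at 5 against 0 days, and 0 were 2-fold lower, beside 15.5% and 5.91% of all genes. Under TMM scaling and with the length trend removed they were again 2 of 15, where 7.13% and 5.05% of all genes were higher. The same 2 passed at 3 against 0 days, where 4.08% of all genes did. The most abundant members were the phosphatase Ptpn6 (181.4, 216.2 and 213.1 RPKM), the kinase Lyn (99.9, 135.8 and 123.2 RPKM) and the adaptor Grb2 (89.9, 106.3 and 106.6 RPKM). For the ligands, the tables gave 24, 32 and 26 reads for Kitl and 12.4, 12.9 and 13.4 RPKM for Flt3l.

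**Figure D4:**
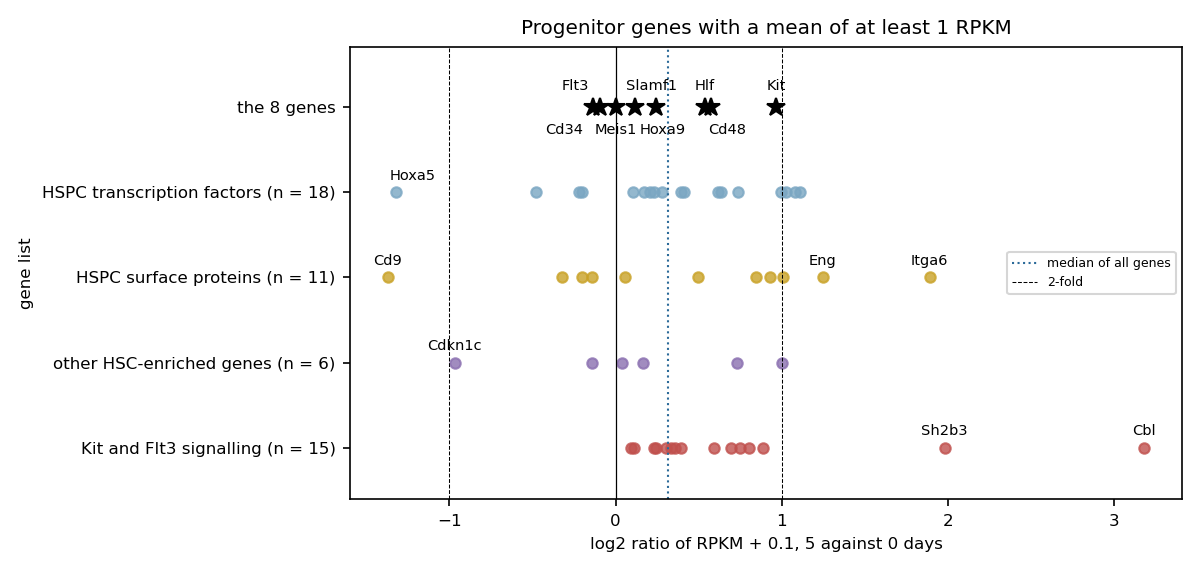
Log2 ratio of RPKM + 0.1 at 5 against 0 days (horizontal axis) for the 8 HSPC genes (stars) and for companion genes that average at least 1 RPKM (circles, 1 row per list). Cbl (3.18), Sh2b3 (1.98) and Itga6 (1.89) lie beyond the 2-fold line on the right, Cd9 (−1.37) and Hoxa5 (−1.32) on the left, and all 8 stars lie between the lines.

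Among 38 companion genes averaging at least 5 RPKM, those with the closest pair of log2 ratios at 3 and 5 against 0 days were named for each gene. For Cd34 they were Cd27 (Euclidean distance 0.0881 on the log2 scale) and Thy1 (0.190), and for Flt3 also Cd27 (0.106) and Thy1 (0.248). Cd27 had 221, 136 and 192 reads and Thy1 410, 237 and 327 reads, each with its lowest level at 3 days. For Kit the nearest were Kmt2a (0.121) and the phosphatase Ptpn11 (0.218), and for Cd48 Runx1 (0.101) and Bmi1 (0.169). These distances rest on 2 ratios that share the 0-day library.

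Markers of other cell types are given beside the 10 genes, whether or not those cells carry them. Cd27 and Thy1 are also T cell genes, and the 9 T and NK cell markers with a row, Trac having none, summed to 201.3, 123.6 and 174.3 RPKM, the same order as Cd34 and Flt3. All 9 were lower at 3 against 0 days, as were 42.3% of all genes averaging at least 1 RPKM, with Nkg7 of cytotoxic granules at 119.9, 74.7 and 113.8 RPKM, the co-receptor Cd4 at 19.7, 14.8 and 18.7 RPKM, the kinase Lck at 14.9, 9.64 and 13.0 RPKM and Cd3d at 10.5, 3.97 and 2.57 RPKM. The 8 dendritic cell markers, which go with Flt3, summed to 360.3, 238.0 and 306.4 RPKM, Irf8 making most of the difference in the sum from 3 to 5 days. At 5 against 3 days 3 of 6 averaging at least 1 RPKM were higher and 3 lower, where 8126 and 3015 of all 11141 such genes were. Bst2 stood at 174.4, 74.3 and 73.9 RPKM, Siglech, a lectin of plasmacytoid dendritic cells, at 52.3, 31.0 and 39.2 RPKM and Irf8 at 110.8, 113.1 and 171.9 RPKM. The 10 endothelial markers, which go with Cd34, summed to 55.4, 47.0 and 62.1 RPKM, with Pecam1 at 38.1, 33.5 and 41.7 RPKM, Egfl7 at 7.65, 4.33 and 5.197 RPKM and Cdh5 at 156, 95 and 149 reads. Eng, which is on this list too, did not have its lowest level at 3 days and was the 1 of 5 endothelial markers at least 2-fold higher at 5 against 0 days, beside 15.5% of all genes. Under TMM scaling 0 of 5 were higher and 1 lower, beside 7.13% and 10.1%. The 10 megakaryocyte markers summed to 53.3, 35.3 and 49.2 RPKM, with Gp6 at 0, 4 and 4 reads. The integrin chains Itga2b and Itgb3 stood at 10.8, 8.34 and 11.2 RPKM and at 10.2, 12.4 and 8.31 RPKM, and the platelet chemokine Ppbp at 9.31, 4.12 and 11.2 RPKM. Each of the T and NK, dendritic and endothelial markers with a row had more than 3 reads in every library. The part of these cells in the levels of Cd34 and Flt3 was not tested.

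For Kit, the 10 mast cell and basophil markers summed to 1037, 789 and 749.9 RPKM. The sum is lowest at 5 days through Hdc. The median log2 ratio of the 7 markers averaging at least 1 RPKM was −0.34 at 3 against 0 days, −0.20 at 5 against 0 days and 0.14 at 5 against 3 days. At 5 against 3 days 5 of 7 were higher, beside 8126 of all 11141 such genes, and the median of all genes was 0.25. Under TMM scaling the marker median at 5 against 3 days was −0.09, with 1 of 7 higher, beside 5854 of all 11141 such genes. The markers thus have no direction from 3 to 5 days that holds under both scalings. Prss34 and Mcpt8, proteases of basophils, led the list with 434.9, 345.3 and 396.9 RPKM and 239.1, 163.9 and 181.2 RPKM. Proteases of mature mast cells had few reads, with 0, 1 and 0 reads for Mcpt4, 4, 3 and 2 reads for Tpsb2 and 21, 10 and 7 reads for Cma1. At 5 against 0 days 1 of 8 markers with at least 1 RPKM was at least 2-fold higher and 2 were lower, beside 15.5% and 5.91% of all genes. The higher one was Ms4a2, the beta chain of the IgE receptor, with 49, 109 and 172 reads, and the lower ones were Cma1 and Hdc, which makes histamine, with 242.2, 184.8 and 66.2 RPKM. The 6 promyelocyte markers summed to 2328, 2173 and 3691 RPKM, with the proteases Elane at 1142, 923.3 and 1451 RPKM and Prtn3 at 311.8, 277.9 and 496.7 RPKM and the peroxidase Mpo at 434.6, 581.4 and 1237 RPKM. The 12 cell-cycle genes summed to 851, 882 and 1423 RPKM, and 5 of 12 were at least 2-fold higher at 5 against 0 days, beside 15.5% of all genes. Under TMM scaling 2 of 12 were (Mki67 and Aurkb), beside 7.13% of all genes, and with the length trend removed 1 of 12 (Aurkb), beside 5.05%. Mki67 stood at 67.3, 114.6 and 217.9 RPKM, Top2a at 81.2, 113.2 and 190.4 RPKM, Aurkb at 23.3, 33.3 and 59.9 RPKM and Bub1 at 9.82, 13.0 and 22.2 RPKM. Pcna, the replication clamp and the most abundant of the list, was at 332.4, 255.1 and 336.9 RPKM. The sums of the promyelocyte and cell-cycle lists were highest at 5 days, as Kit and Cd48 were, and the part of these lists was not tested. Of the 6 promyelocyte markers, 5 were higher and 1 lower at 5 against 0 days, beside 7528 and 3616 of all 11144 genes averaging at least 1 RPKM. Under TMM scaling 4 of 6 were higher, beside 5613 of 11144 genes, and their median log2 ratio was 0.09, beside 0.01. The 8 B cell markers summed to 2058, 1643 and 1468 RPKM and the 8 erythroid markers to 588, 702 and 571 RPKM. The B cell receptor chains Cd79a and Cd79b stood at 827.5, 613.6 and 532.3 RPKM and at 522.7, 417.3 and 371.7 RPKM. Of the erythroid genes, the haem synthesis enzyme Alas2 stood at 174.7, 244.2 and 107.04 RPKM and the anion exchanger Slc4a1 at 109.4, 182.95 and 174.2 RPKM.

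**Figure D5:**
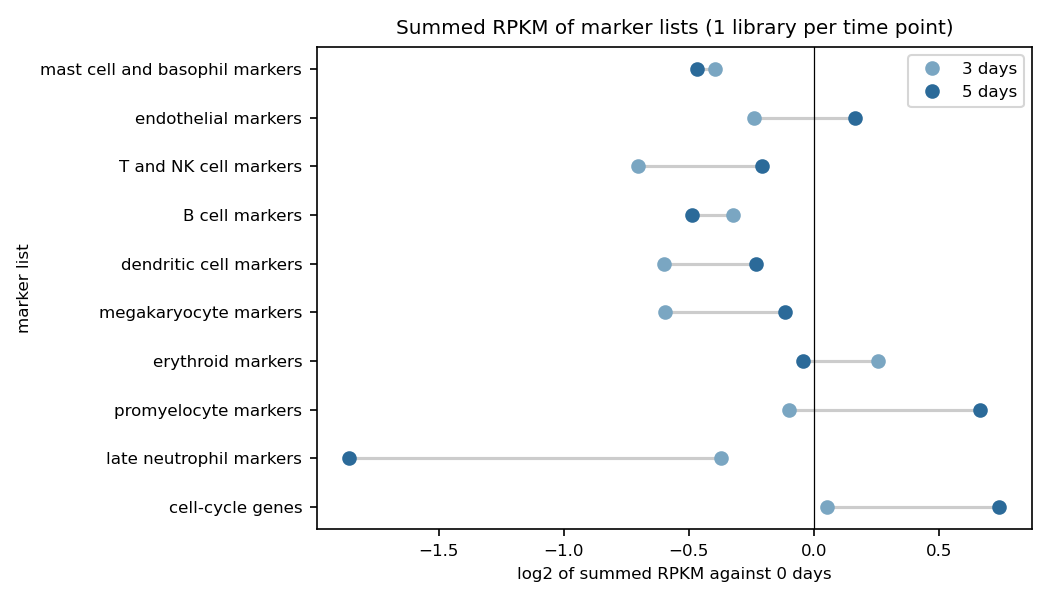
Log2 of the summed RPKM of each marker list at 3 days (light) and 5 days (dark) against 0 days, 1 library per time point. The sums of T and NK, dendritic and megakaryocyte markers were lower at 3 days than at 5 days (for T and NK cells 123.6 and 174.3 RPKM), for dendritic cells mostly through Irf8, cell-cycle and promyelocyte markers were highest at 5 days, and late neutrophil markers lowest at 5 days.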

How the data were processed

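RNA of mouse BM cells, flushed from bones per the labels, was sequenced by the authors from TruSeq libraries on an Illumina HiSeq instrument, with 1 library for each of 0, 3 and 5 days of LECT2. The authors deposited a table for each pair of time points, with whole read counts per gene, the RPKM computed from these counts and the gene length in bases. The methods name Cufflinks for quantitation, and the submitters' processing notes name the build mm8. An aligner is not given in the sources used here. Dividing a count by gene length and by the library's gene reads gave the deposited RPKM, except in 18 rows of the 0-day and 14 rows of the 3-day library. The authors listed a count of 0 at 0.01 RPKM, which was set to 0 here. Their log2 ratios, P values and false discovery rates were not used. The libraries held between 15146983 and 15523952 gene reads.

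Samples were grouped by the time in their titles. For the 232 names with several rows, the one with the largest mean RPKM was used. Log2 ratios used a pseudocount of 0.1 RPKM. Exact 95% intervals (Clopper-Pearson for ratios, Poisson for levels) cover counting error only, and no fold is given against 3 reads or fewer. A difference of at least 2-fold was counted among genes with at least 1 RPKM in either library, and medians were taken over genes averaging at least 1 RPKM. With 1 library per time point no test was made. The 10 genes and the companion and marker lists (HSPC transcription factors, HSPC surface proteins, other HSC-enriched genes, Kit and Flt3 signalling, SLAM, Ly6 and HoxA and Meis paralogs, and markers of mast cells and basophils, endothelium, T and NK, B, dendritic, megakaryocyte, erythroid, promyelocyte and late neutrophil cells and the cell cycle) were chosen with earlier results of these data known, and 3 genes of these lists are not reported here. From each list the 3 members with the highest mean RPKM, and up to 4 at least 2-fold different at 5 against 0 days with at least 5 RPKM, were taken for naming, and for genes with at least 5 RPKM the 2 nearest companions. Marker genes that stand for a cell type at or near 0, Procr and the paralogs were named after their values were seen, as were other genes outside this rule.

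Alternatives were pseudocounts of 1 and 0.01, TMM (edgeR 4.0.16) and median-of-ratios (DESeq2 1.42.0) scaling of the counts, scaling without the 100 most abundant genes, removal of the trend on gene length (statsmodels 0.14.6, lowess, span 0.3), the sum of rows, minima of 5 RPKM and none, and thresholds of 1.5- and 4-fold. The steps were tested on simulated data. Python 3.11.15, numpy 2.4.6, pandas 2.3.3, scipy 1.17.1 and R 4.3.3 were used. Positions are from GENCODE M21 (GRCm38) and promoters from RefSeq (GRCm38.p6), matched by symbol for 9 of the 10 genes.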

Additional observations from a re-analysis of the deposited data

How the results depend on the processing

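No paired analysis was possible because each time point has 1 library. The count of the 8 HSPC genes past the threshold was 0 in each comparison at 2-fold. At 1.5-fold it was 2 lower at 3 against 0 days, 1 higher at 5 against 0 days and 2 higher at 5 against 3 days. With the trend on gene length removed, the median of the 8 genes at 5 against 3 days was 0.27, the log2 ratio of Kit at 3 against 0 days was −0.12 and that of Hlf at 5 against 0 days was −0.18. The cause of the length trend was not tested. Of the 30 log2 ratios of the 10 genes, 8 moved beyond their counting interval under TMM scaling, 8 with median-of-ratios factors, 4 when the 100 most abundant genes were left out, 12 without the length trend beside Kit and Hlf above, and 0 under the other pseudocounts or the sum of rows. Counting also ratios whose interval held 0 and the 2 genes under 1 RPKM, the sign changed in 6 of the 30 under TMM scaling, 6 with median-of-ratios factors, 4 without the 100 most abundant genes, 8 without the length trend and 1 with the sum of rows. Over all genes, the at least 2-fold higher and lower counts at 5 against 0 days were 1786 and 680 with the deposited RPKM and 816 and 1158 under TMM scaling, and at 3 against 0 days 462 and 273 against 356 and 367. At 5 against 3 days, which leaves out the 0-day library, they were 222 and 393 against 66 and 554. Counting error leaves Slamf1, Hoxa9, Ly6a and Mecom, all under 50 reads in each library, without a direction at 5 against 0 days.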
